A study of Mus musculus with 6 samples.

Results

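RGK proteins are small GTPases related to Ras that hold back voltage-gated calcium channels, and L-type channels carry the calcium current that triggers contraction of the heart. The 9 genes described here are the RGK GTPases Rrad, Gem, Rem1 and Rem2, the L-type channel genes Cacna1c, Cacna1d, Cacnb2 and Cacna2d1, and Ahnak, a very large scaffold protein that binds the channel. Members were found by gene symbol in the platform's probe-to-gene table, which gave 19 probe sets for 8 of the 9 genes, out of 45101 probe sets on the array. Rem1 was not in that table and was not analysed here. The group was chosen by the Rrad signal in Lira against placebo hearts, which was already known, and the other genes were added as its family and its target. The member values below are therefore given as descriptions, and no test is drawn from them.

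Left ventricles came from male C57BL/6 mice that were 6 months old and had been fed a high fat diet for 16 weeks, which makes this inbred strain obese. The groups were 3 mice given an agent that the labels name Lira and 3 mice given placebo, both on the same diet, with 1 array per mouse. The labels give no dose, no duration of the Lira treatment and no lean or chow-fed group. The design text speaks of 10 mice, and animals beyond these 6 were not analysed here.

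RGK proteins bind the beta subunit of the channel and lower the calcium current. In the mouse heart, phosphorylation of Rad, the protein of Rrad, by protein kinase A releases this block during beta-adrenergic stimulation. Rad takes its name from diabetes, because it was first found as a transcript raised in skeletal muscle of people with type 2 diabetes. Cacna1c encodes the pore of the main ventricular L-type channel, Cacnb2 its principal cardiac beta subunit, and Cacna2d1 the extracellular alpha2delta subunit that helps bring the channel to the membrane.

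Rrad was the member that differed most between the groups. Its one probe set gave 1471, 1286 and 1582 signal units in Lira replicates 1, 2 and 3, against 773, 535 and 899 in placebo replicates 1, 2 and 3. Signal is the fluorescence of a probe set in arbitrary linear units, scaled by the authors so that the 2% trimmed mean of every array is 150. All Lira hearts lay above all placebo hearts, and the lowest Lira value was 1.43 times the highest placebo value. The means were 1446 ± 149 with Lira and 736 ± 185 with placebo (SD, n = 3 each), a ratio of 1.97. On the log2(signal + 16) scale used for the fit the difference was 0.99 ± 0.16 (SE), Lira minus placebo.

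**Figure D1:**
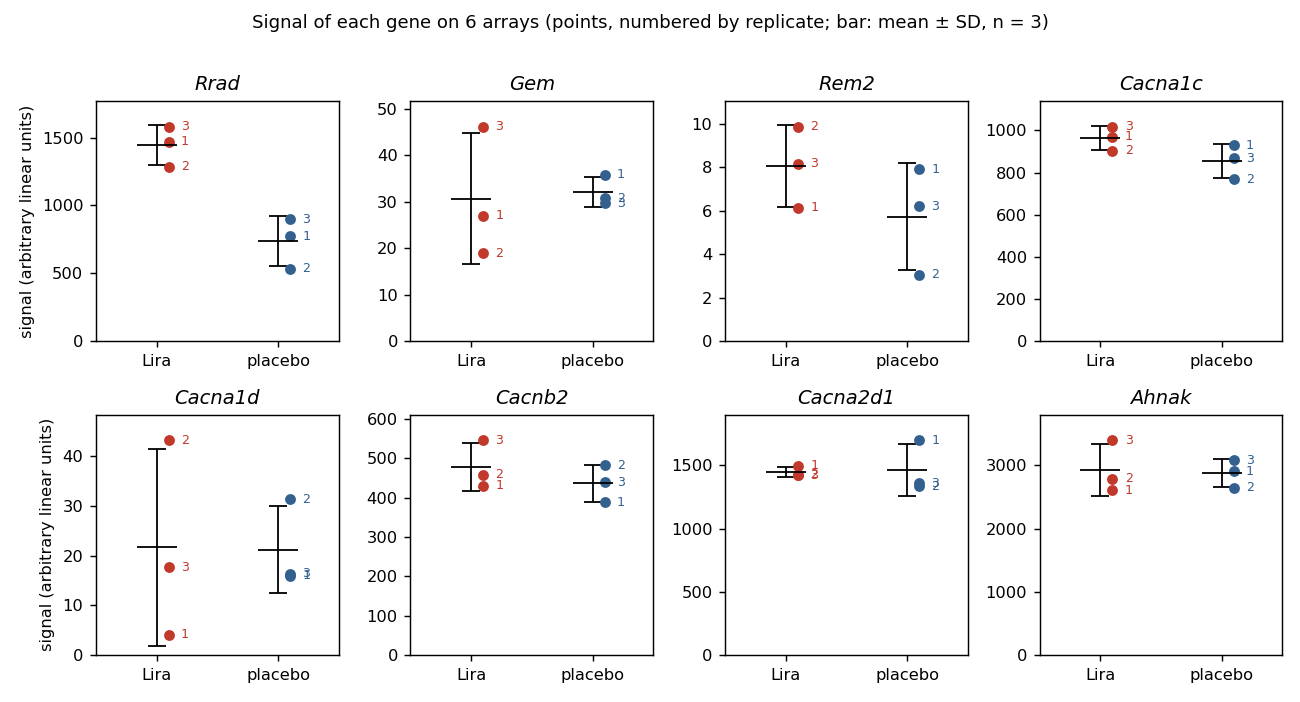
Signal in arbitrary linear units on each array for the brightest probe set of the 8 genes with one, Lira left and placebo right, with points numbered by replicate and bars for mean ± SD (n = 3). The Rrad groups are apart, with 1286 as the lowest Lira and 899 as the highest placebo value, while the other 7 genes overlap.

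The spread of Rrad was larger among placebo hearts than among Lira hearts. The coefficient of variation was 10.3% with Lira and 25.1% with placebo, and the highest array was 1.23 times the lowest with Lira and 1.68 times with placebo. Placebo replicate 2, at 535, was the lowest of the 6. Without that array the Rrad difference was 0.78 ± 0.13, the smallest among 18 alternative settings, and without placebo replicate 3 it was 1.14 ± 0.14, the largest. Rrad was higher with Lira under all 18 settings, but this adds no separate evidence. Because the groups did not overlap, leaving out 1 array could not change the sign. Settings that altered only the filter, the probe set rule, the variance model or the block left the difference at 0.99.

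In the limma fit over 12735 genes, Rrad had an adjusted p of 0.041 (Benjamini-Hochberg), the value for which the group was chosen. It was the 1 member called out of the 6 that were tested, and in the whole fit 0.055% of genes were called, 0.0236% as higher with Lira. Nothing is read from that count, since this contrast was in view when the members were picked. The adjusted p was above 0.05 in 11 of the 18 alternatives. It was 0.17 without Lira replicate 1, 0.068 without Lira replicate 2, 0.37 without Lira replicate 3, 0.069 without placebo replicate 1 and 0.054 without placebo replicate 2. Without the variance trend, which lets the assumed variance depend on signal, it was 0.90, and over the 18 alternatives it ran from 0.0073 to 0.90.

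**Figure D2:**
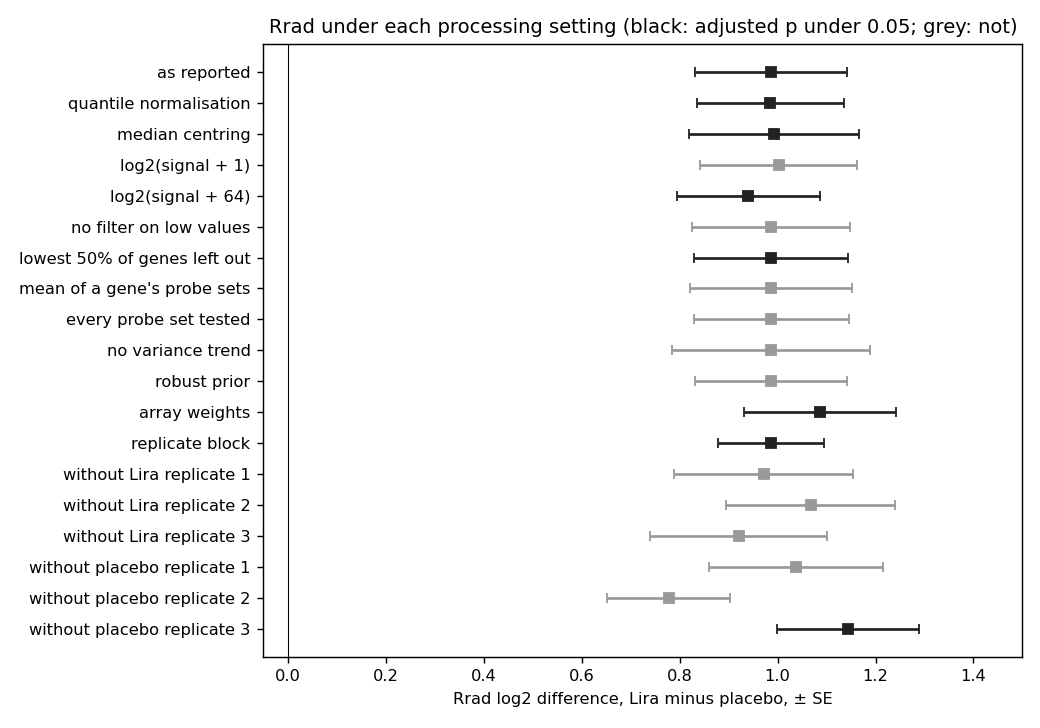
Log2 difference of Rrad, Lira minus placebo, with its SE under the reported setting and 18 alternatives, black where the adjusted p is under 0.05 and grey where it is not. The values run between 0.78 and 1.14, and 7 alternatives are black.

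The other RGK genes gave dim signals in this tissue. Gem, an RGK GTPase whose transcript is induced by mitogens in several cell types, measured 26.9, 19.0 and 46.2 in Lira hearts, against 35.8, 30.7 and 29.7 in placebo hearts. The highest and the lowest of these 6 values were both from Lira hearts, and the log2 difference was -0.08 ± 0.32. Its sign changed when Lira replicate 2 was left out, to 0.11. Rem2, which is best known from neurons, had values of 6.13, 9.87 and 8.16 with Lira and 7.91, 3.04 and 6.21 with placebo on its brighter probe set. The dimmer Rem2 probe set gave 3.46, 3.28 and 17.5 with Lira and 2.01, 2.35 and 1.97 with placebo, so the groups did not overlap but 1 Lira array made up most of the difference. No detection calls were used, so Rem2 could not be told from background, and it was below the signal filter of the fit.

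Cacna1c, the pore subunit to which Rad's restraint applies in ventricular muscle, was a little brighter with Lira on both of its probe sets. The brighter one measured 971, 904 and 1019 in Lira hearts, against 929, 769 and 867 in placebo hearts. These groups overlapped, and the log2 difference was 0.17 ± 0.10. The second probe set measured 528, 497 and 440 in Lira hearts, against 391, 414 and 343 in placebo hearts. Here every Lira value exceeded every placebo value, narrowly, since the lowest Lira value was 1.06 times the highest placebo value, and the log2 difference was 0.34 ± 0.11. The brighter probe set kept its sign with each array left out in turn, with a low of 0.10 when placebo replicate 2 was dropped and a high of 0.23 when placebo replicate 1 was, and the average of both probe sets differed by 0.26.

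Cacna1d encodes a second L-type pore, known mainly from the sinoatrial node and atria. Its probe sets were dim, with mean signals of 21.4 and 21.3 over the 6 arrays, and both were below the filter. The brighter one gave 4.11, 43.2 and 17.6 with Lira and 16.0, 31.3 and 16.3 with placebo. The Lira values enclosed the placebo values.

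Cacnb2, the beta subunit that RGK proteins bind, overlapped between the groups on both probe sets. The brighter one measured 430, 458 and 546 in Lira hearts, against 388, 483 and 439 in placebo hearts, a log2 difference of 0.12 ± 0.12. Single arrays moved this value, which was 0.03 when Lira replicate 3 was dropped and 0.04 when placebo replicate 1 was. It was 0.19 when Lira replicate 1 was dropped and 0.20 when placebo replicate 2 was. The dimmer one measured 129, 164 and 173 with Lira and 112, 189 and 111 with placebo, a difference of 0.19 ± 0.21. Both differences had the same sign and were no larger than about their own standard error.

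Cacna2d1 was nearly equal in the groups on its brightest probe set. That probe set measured 1497, 1428 and 1424 in Lira hearts, against 1699, 1336 and 1358 in placebo hearts, a log2 difference of -0.01 ± 0.10. This difference kept its sign in 12 of 18 alternatives. It was 0.01 after quantile normalisation, 0.01 with array weights and 1.5e-05 with median centring. With single arrays left out it was 0.004 without Lira replicate 2, 0.006 without Lira replicate 3 and 0.10 without placebo replicate 1. The second brightest of its 5 probe sets gave 224, 209 and 201 with Lira and 243, 240 and 225 with placebo. These groups just failed to overlap, and the difference was -0.15 ± 0.11. The remaining 3 probe sets overlapped and also had negative differences, from -0.21 to -0.06.

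Ahnak, the scaffold that links the channel's beta subunit to the actin cytoskeleton in heart muscle cells, was bright on 1 of its 4 probe sets. That one measured 2607, 2789 and 3396 in Lira hearts, against 2907, 2650 and 3082 in placebo hearts. The groups overlapped and the log2 difference was 0.02 ± 0.11. Its sign changed without Lira replicate 3, to -0.09, and without placebo replicate 2, to -0.04. A dimmer probe set gave 119, 93.7 and 93.2 with Lira and 82.8, 71.2 and 80.4 with placebo, which did not overlap, a difference of 0.32 ± 0.19. The other 2 overlapped, with differences of 0.27 ± 0.30 and -0.08 ± 0.34. The 4 probe sets of Ahnak thus gave no single direction.

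**Figure D3:**
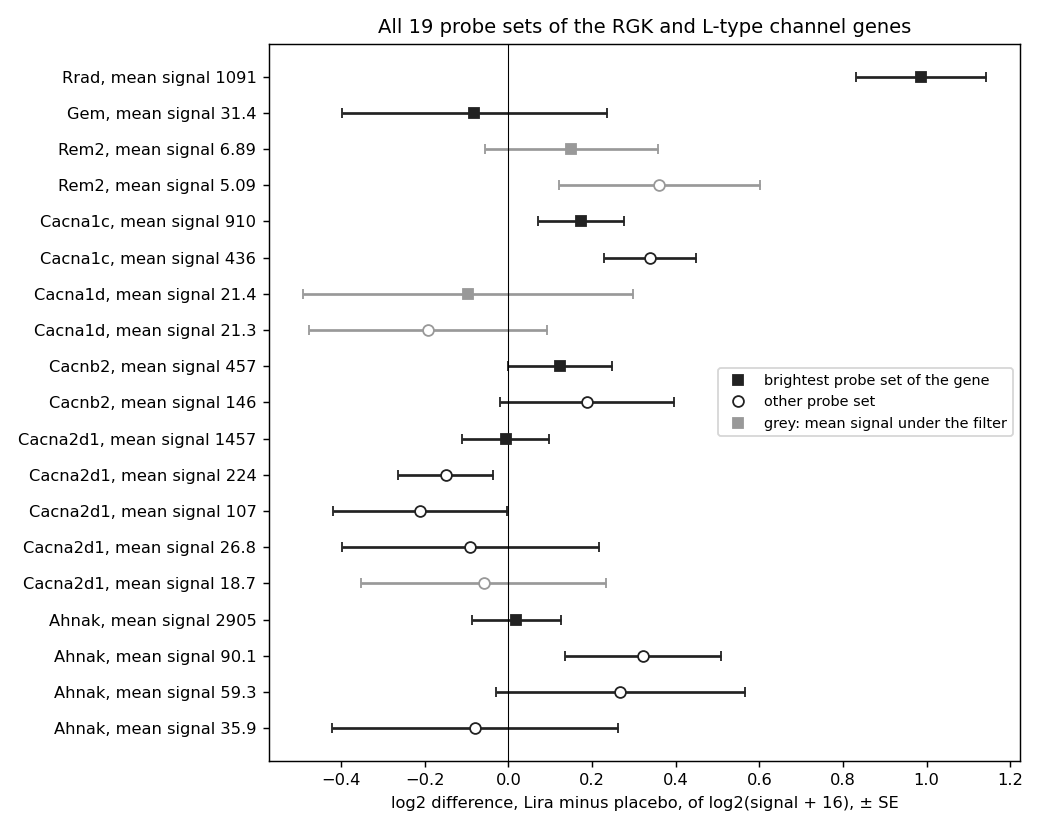
Log2 difference, Lira minus placebo, of log2(signal + 16) with its SE for all 19 probe sets, with squares for the brightest probe set of each gene, open circles for the others and grey for mean signals under the filter. Rrad stands at 0.99, and the other 18 probe sets lie between -0.21 and 0.36.

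Across the 19 probe sets the groups did not overlap in 5, of which 4 were higher and 1 lower with Lira. The 4 include Rrad, for which the group was chosen, and the Rem2 probe set that lay below the filter. Probe sets of the same gene are not independent, so nothing is read from this count. Over all probe sets that name a single gene the groups did not overlap in 10.7%, with 5.33% higher and 5.34% lower. The 6 members tested split into 4 with the higher mean log2 value in Lira hearts and 2 with the lower. Their median log2 difference was 0.07, beside 0.01 over all 12735 genes. Both the split and the median include Rrad, for which the group was chosen, so no shift of the family is read from them. The groups of 1 of these 6, Rrad, did not overlap, beside 11.4% of all genes and 5.98% with Lira on the higher side. The 5 tested members other than Rrad differed by -0.08 to 0.17, and the middle 50% of all genes lay between -0.12 and 0.13. Of these 5, Cacna1c alone lay outside that range on its brightest probe set.

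The wider L-type channel pathway was covered by 69 further genes in 6 lists. Of these, 61 had a probe set naming them alone and 47 passed the signal filter. By limma with Benjamini-Hochberg adjustment 0 of the 47 passed, the smallest adjusted p being 0.62, and 4 had an unadjusted p under 0.05, all lower with Lira. That is 8.51% of the 47, beside 6.02% of all genes in either direction and 3.12% in the lower direction. The groups did not overlap in 4 of the 47, also 8.51%, beside 11.4% of all genes. In all, 23 had positive and 24 negative log2 differences, and the median was -0.01.

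The kinases that act on the channel held 2 of those 4 genes, and neither passed the adjusted threshold. Prkaca, a catalytic subunit of protein kinase A, measured 2404, 2660 and 3022 in Lira hearts, against 3124, 3103 and 3495 in placebo hearts. The groups did not overlap and the log2 difference was -0.27 ± 0.10 (adjusted p = 0.71, limma), but its other probe set had the opposite sign, at 0.54. Camk2d, the main cardiac form of calcium/calmodulin-dependent kinase II, measured 493, 369 and 411 with Lira and 472, 536 and 575 with placebo. Its groups overlapped, the difference was -0.31 ± 0.13 (adjusted p = 0.77, limma), and 6 of its 7 probe sets had that sign. Prkacb, a second catalytic subunit, differed by -0.16 ± 0.11 without overlap, and Akap6, an anchor for the kinase, by -0.14 ± 0.10, each with a probe set of the other sign. Of the 16 tested genes in this list of kinases, receptors, phosphatases and phosphodiesterases, 7 had positive and 9 negative differences, and the median was -0.01.

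Proteins reported to bind RGK GTPases or Ahnak held the other 2. S100a10, a small calcium-binding-family protein that forms a complex with annexin A2 and binds Ahnak, measured 504, 305 and 733 in Lira hearts, against 631, 874 and 1090 in placebo hearts. The groups overlapped, the log2 difference was -0.78 ± 0.25 (adjusted p = 0.62, limma), and its 3 probe sets all had this sign, from -0.78 to -0.19. Its partner Anxa2 differed by 0.03 ± 0.10, with a probe set at -0.98 as well. Nme1, a nucleoside diphosphate kinase that interacts with Rad, measured 453, 302 and 289 with Lira and 478, 379 and 463 with placebo, with a log2 difference of -0.35 ± 0.16 (adjusted p = 0.82, limma) and the other sign on 1 of 2 probe sets. Among the 14-3-3 proteins, which bind phosphorylated RGK proteins, Ywhah differed by 0.10 ± 0.10. Ywhag differed by -0.16 ± 0.09, with 2 of its 4 probe sets of that sign, and Ywhaz by -0.09 ± 0.10, with 4 of its 7. The 10 tested RGK partners had 5 positive and 5 negative differences and a median of -0.03. The 4 Ahnak relatives and partners had 2 of each and a median of -0.34. Ahnak2 differed by 0.13 ± 0.16, and S100b, which was dim at 18.5 ± 16.2 with Lira and 37.2 ± 10.5 with placebo, by -0.70 ± 0.38 on its brighter probe set and by 0.69 on its other one.

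Calcium channel subunits outside the cardiac L-type complex had mean signals of 107 or less, and 0 of the 12 tested had an unadjusted p under 0.05 in limma. The largest differences came from dim genes, since Cacna1f, Cacna1e, Cacnb1, Cacna2d2, Cacng7 and Cacng6 had mean signals of 26.1 to 45.6. The lowest mean that passed the filter was 23.7. The 6 tested pore genes had 3 positive and 3 negative differences and a median of 0.02. Cacna1f, the retinal L-type pore, differed by 0.42 ± 0.30 and Cacna1e, an R-type pore, by 0.36 ± 0.37, and the T-type pores Cacna1g and Cacna1h by 0.10 ± 0.26 and -0.08 ± 0.21. The 6 tested auxiliary genes also had 3 of each, and a median of 0.18. Cacnb1, the beta subunit of skeletal muscle, differed by -0.60 ± 0.38, with 2 of its 4 probe sets of that sign, and Cacna2d2, a relative of Cacna2d1, by 0.55 ± 0.35, with 1 of its 3. Cacng7 and Cacng6, of the gamma subunit family, differed by 0.53 ± 0.33 and 0.43 ± 0.32, and the groups of Cacng6 did not overlap. The 5 tested trafficking and dyad genes had 3 positive and 2 negative differences and a median of 0.10. Jph2, which ties the sarcoplasmic reticulum to the T-tubule, differed by 0.13 ± 0.09 on its brighter probe set and by -0.12 on its other one. Cav3, the muscle caveolin, differed by -0.06 ± 0.10. Sri, which encodes the calcium-binding protein sorcin, differed by 0.10 ± 0.13, and Bin1, which shapes T-tubules and delivers the channel there, by 0.10 ± 0.21.

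**Figure D4:**
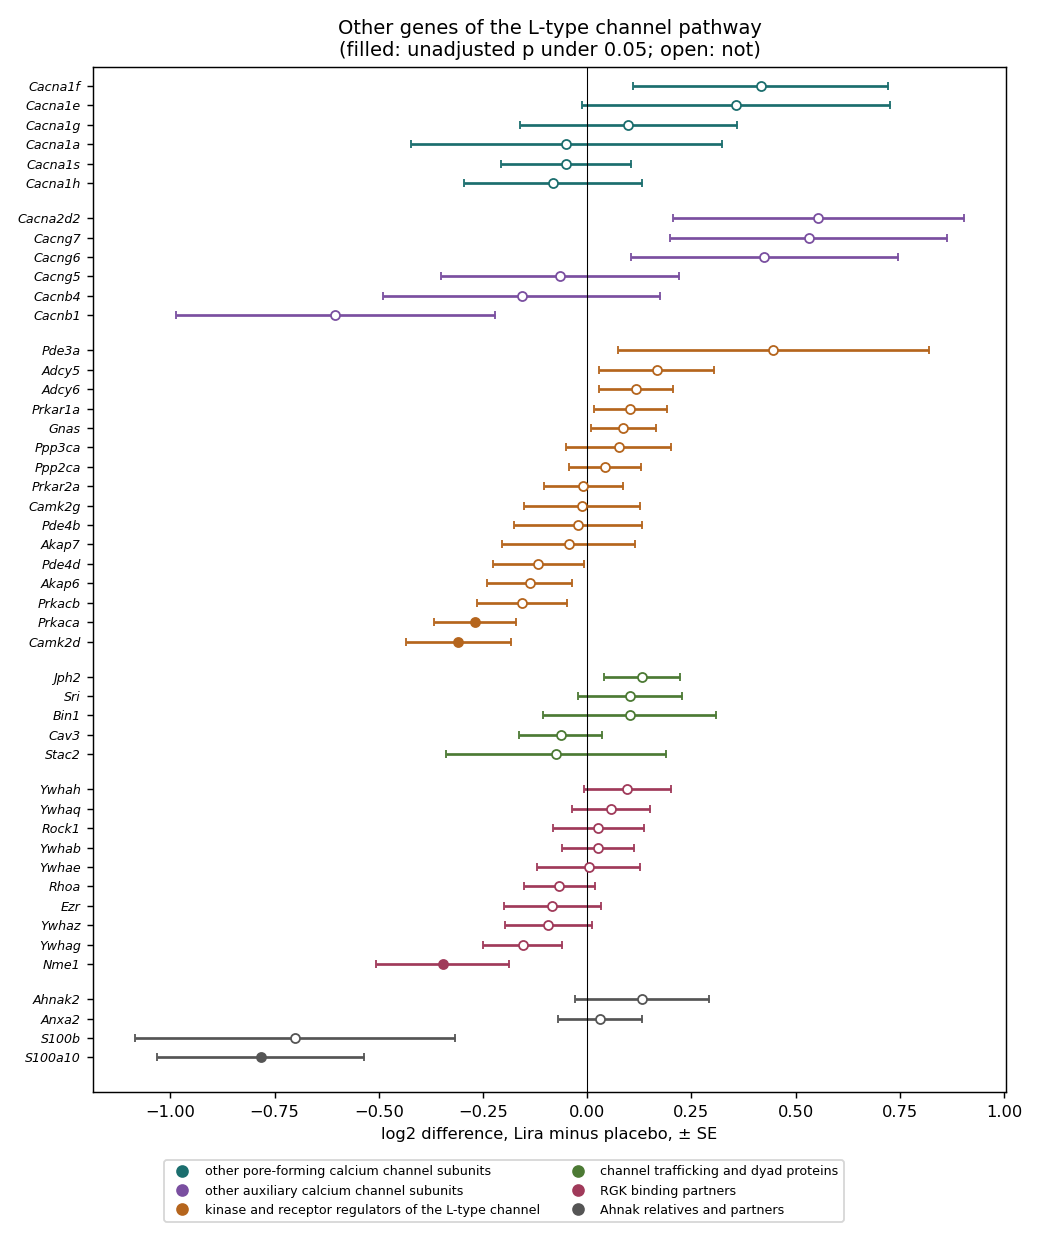
Log2 difference, Lira minus placebo, with its SE for the 47 tested genes of the wider pathway, coloured by list, filled where the unadjusted p is under 0.05. The 4 filled genes, Prkaca, Camk2d, Nme1 and S100a10, all lie below 0.

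The genes whose profile was nearest to that of Rrad over the 6 arrays were Ano10, Inmt, Snai2, 2210407C18Rik and Irs1. Nearness was the mean absolute difference between log2 values centred on each gene's own mean, over 7943 genes whose mean signal was 100 or more, and it ran from 0.18 for Ano10 to 0.23 for Irs1. Since Rrad separates the groups, this measure mostly finds other genes that do, and it is a description. Inmt, an N-methyltransferase, measured 456, 440 and 536 in Lira hearts, against 333, 235 and 274 in placebo hearts, with no overlap. Snai2, a zinc finger repressor, measured 200, 115 and 205 with Lira and 104, 57.2 and 167 with placebo. Its groups overlapped, and like Rrad it was lowest in placebo replicate 2 and highest in Lira replicate 3, but its second probe set had the other sign.

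**Figure D5:**
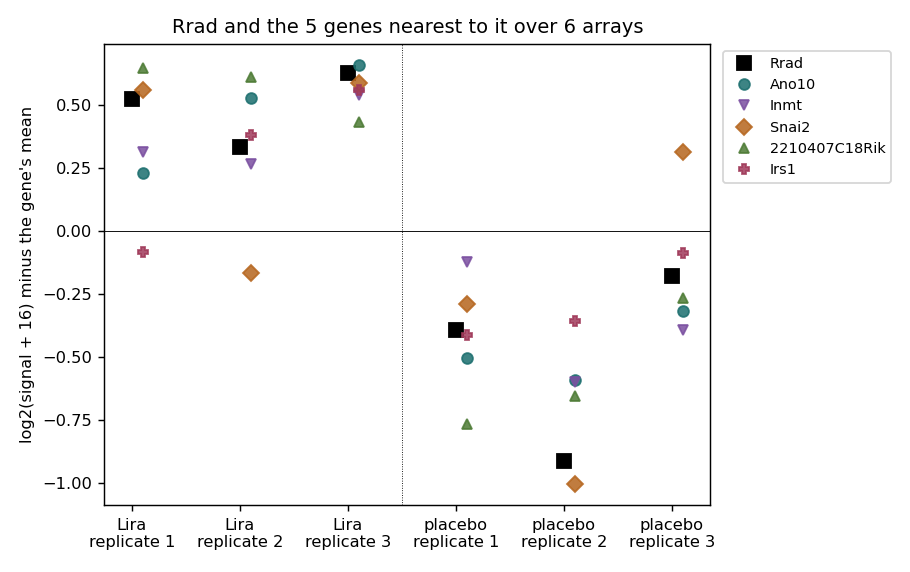
Log2(signal + 16) minus the gene's own mean over the 6 arrays for Rrad (squares) and its 5 nearest genes, Lira arrays left and placebo arrays right. Rrad, Ano10, Inmt and 2210407C18Rik are above 0 on the 3 Lira arrays and below 0 on the 3 placebo arrays, while Snai2 and Irs1 each cross.

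The tissue label was checked against cell type markers. The 7 heart muscle markers summed to 176714 to 224816 units with Lira and 174791 to 187466 with placebo, all 7 having the higher mean with Lira. The atrial myosin light chain Myl7 was close to 0, at means of 2.36 with Lira and 8.97 with placebo. Myl4, also on the atrial list, was brighter, at means of 114 with Lira and 92.9 with placebo, and its groups did not overlap. Summed signals did not overlap in 4 lists. Fibroblast markers summed to 9909 to 11702 with Lira and 8743 to 9618 with placebo, with 5 of 6 higher with Lira. Without Dcn, the largest part of the sum, they overlapped, at 2444 to 2996 with Lira and 1877 to 2791 with placebo. Smooth muscle markers summed to 7467 to 9408 with Lira and 6991 to 7444 with placebo, with 3 of 6 higher. Without Acta2, at 3377 in Lira replicate 1, these sums overlapped, at 5949 to 6031 with Lira and 5601 to 6321 with placebo. Des made up most of what remained, at means of 5250 with Lira and 5193 with placebo, so these sums mainly follow that gene. Macrophage markers summed to 2605 to 3038 with Lira and 2472 to 2545 with placebo, with 6 of 6 higher. Atrial markers summed to 1618 to 2268 with Lira and 2787 to 3218 with placebo, with 1 of 5 higher, and Nppa made up most of that sum. Skeletal muscle markers, which matter because skeletal muscle expresses Rrad too, overlapped, at 14537 to 16700 with Lira and 15006 to 15343 with placebo, with 3 of 7 higher. Nearly all of that sum was Ckm, which heart also expresses, while Myh4 and Tnnt3 were near 0, at means of 8.82 and 3.87 with Lira and 13.2 and 5.80 with placebo. Myh2 and Tnni2 of this list were dim but somewhat higher, at means of 28.2 and 29.5 with Lira and 45.9 and 32.5 with placebo. Sums also overlapped for pericyte (4 of 5 higher), endothelial (3 of 6), lymphocyte (2 of 5), adipocyte (2 of 4), neural (1 of 3) and blood markers (0 of 3). Whether these shifts bear on the Rrad difference was not tested, and in bulk tissue fewer cells of a type and less RNA per cell cannot be told apart. The median signal was 28.6 to 39.6 on the Lira arrays and 31.9 to 36.4 on the placebo arrays, and with each array centred on its median the Rrad difference was 0.99 ± 0.17.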

How the data were processed

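Values are probe set intensities from Affymetrix arrays. Per the submitters' processing notes the authors used Affymetrix Expression Console, and its version, the algorithm and a genome build were not given in the sources used here. As deposited, intensities are linear and have a 2% trimmed mean of 150 on each of the 6 arrays, as checked on the values. This scaling shows only changes relative to other genes. The labels' description names left ventricle, but their extraction text names blood. Heart muscle markers summed to 174791 or more on every array, and the 3 measured blood markers to 111 or less. These values are those of heart muscle and not of blood.

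After removal of 64 control probe sets, 34945 with 1 gene in the name table were used. Of all 45101, 34958 had 1 gene there, 932 had several and 9211 were not listed, and gene IDs gave RefSeq symbols of GRCm38.p6 for 34754. The probe set with the highest mean stood for its gene, on the log2(signal + 16) scale, which understates fold changes of dim genes. Dropping the dimmest 30% of genes kept 12735, with means of at least 23.7. The Lira and placebo groups were compared by limma 3.58.1 in R 4.3.3 (eBayes with trend, two-sided, Benjamini-Hochberg at 0.05). The fit was first run on data simulated from the same variance model, which cannot show whether that model holds for these arrays. SEs of other probe sets come from a fit of all single-gene probe sets.

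Members and lists were chosen with earlier results of these data known. Named genes are all members, up to 4 genes of smallest p per pathway list, and the 5 nearest to Rrad. Some marker genes that were near 0 or made up most of a sum are also named, with some others of the same lists. Nothing in the labels says that replicates share litters or days. Alternatives were other scalings, pseudocounts, filters, probe set rules, priors, array weights, a replicate block and each array left out. The number of arrays limits the precision.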

Additional observations from a re-analysis of the deposited data

How the results depend on the processing

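The number of genes past the adjusted threshold in limma was 7 as reported. It was 1 with no filter on low values, 2 with every probe set tested, and 0 with probe sets averaged per gene and 0 without the variance trend, where 684 and 683 genes had an unadjusted p under 0.05. With single arrays left out it was 1 to 9. The count of members past the threshold, 1 as reported, was 0 with log2(signal + 1), no filter, averaged probe sets, every probe set tested, no variance trend and a robust prior, and 0 to 1 with single arrays left out. Pathway genes past it numbered 0 in all settings. Those at an unadjusted p under 0.05, 4 as reported, numbered 1 with median centring, 1 with averaged probe sets, 1 without the variance trend, and 2 to 4 with single arrays left out, where 2 came without placebo replicate 3. The cause was not tested. With the replicate number as a block, 7 genes passed and the Rrad difference was 0.99 ± 0.11 (adjusted p = 0.0080, limma). Deviations of same-numbered arrays correlated across genes at -0.03, 0.08 and -0.09, within the -0.15 to 0.18 of differently numbered arrays. These values show no pairing of the mice by number, but with 3 arrays per group they cannot exclude it. Gem was left out of the fit when the lowest 50% of genes were removed.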
